A study of Rattus norvegicus with 31 samples.

Results

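Toll-like receptors are the sensors with which monocytes, dendritic cells and B cells detect microbial products. The data below concern 6 of these receptors (Tlr1, Tlr2, Tlr4, Tlr6, Tlr7 and Tlr9) and 4 genes that act directly behind them, the adaptors Myd88 and Ticam1 and the kinases Irak1 and Irak4. The genes were chosen by name on the rat array, though with earlier results of these data known, and each was represented by 1 probe. They are 10 of the 22258 features tested in PBMC, the mononuclear white cells of blood (lymphocytes, monocytes and a few dendritic cells).

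The 31 samples, 1 array each, came from offspring of 16 mated rats, sampled as adults after 4 months of free access to chow. The WT group (7 samples) were offspring of dams fed normally, which the protocol calls controls. In the CR group (11 samples) calories of the dams had been cut by 20% during pregnancy (days 1 to 12), and the pups were suckled without supplement. The CR-L group (13 samples) had dams restricted in the same way, and the pups received leptin, a hormone of fat tissue that is also present in milk, until postnatal day 21, in daily doses that rose from 1.0 to 43.8 ng. These doses were 5 times the amount that pups take in with milk. With at most 16 litters some of the 31 animals share a dam, and the labels give neither the litter nor the sex of each sample, so p-values that treat the arrays as independent may be too small. No group received leptin after a normal pregnancy, so the effect of leptin alone was not measured.

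The receptors fall into families by what they bind and where they sit. Tlr2 pairs with Tlr1 or Tlr6 at the cell surface and detects bacterial lipopeptides, Tlr4 detects lipopolysaccharide with the help of Cd14 and Ly96, and Tlr7 and Tlr9 detect RNA and DNA in endosomes. All of these use Myd88, which recruits Irak4 and then Irak1 and passes the signal through Traf6 to NF-kB. Ticam1, also called TRIF, is the adaptor of Tlr3 and, in endosomes, of Tlr4, and leads through Tbk1 to interferon genes or through Ripk3 to cell death.

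Each value is the log2 of a sample's signal divided by that of a common reference pool, normalised within each array. A difference of 1 is a doubling of this ratio, and an offset added to the intensities draws differences of dim probes towards 0. There was no dye swap, so 0 is not exactly a gene's level in the pool. Differences are given ± SE and tested with limma over all features, with Benjamini-Hochberg adjusted p-values and a threshold of 0.05. All 10 probes stood well above background in the sample channel on each of the 31 arrays, none was saturated, and none was marked as an outlier. In the reference channel, over which every ratio is taken, the Tlr9 probe was well above background on 27 of 31 arrays and the other 9 probes on all. The median ratio of signal to local background ranged from 3.45 for Tlr9 to 189 for Tlr2, so Tlr9 and Tlr4 (4.43) were read close to background and Tlr2, Tlr6 (55.1) and Irak1 (37.3) far above it. These ratios describe the probes and do not rank the genes by abundance. The median sample intensity of an array was 69.8 to 235. Markers of the cells that PBMC should hold were measured, 17 of 18 listed for monocytes, 14 of 16 for T cells, 13 of 15 for B cells and 9 of 11 for NK and cytotoxic cells. Of those listed for plasmacytoid dendritic cells, 8 of 10 were measured, and no probe was named for Siglech or Spib. Markers of granulocytes (11 of 14), platelets (10 of 13) and red cells (11 of 12) were above background too. A marker counted as measured if it was well above background on 7 or more arrays. Some were dim on many of them, as Mpo was well above background on 8 arrays, Mmp8 on 16 and Ermap on 22. The 3 lowest platelet marker means were those of CR-L replicates 3 (-2.91) and 7 (-2.51) and WT replicate 7 (-1.50).

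The result that follows first rests on a single 60-base probe, that of Ticam1, and the probes of Tlr1, Tlr6 and Tlr2 are shown with it because these receptors are close relatives that work as partners. The Ticam1 probe is placed by the array's annotation on the unassigned sequence of rat build rn4 (chrUn:25503883-25503942). Those of Tlr1 (chr14:46124542-46124601) and Tlr6 (chr14:46100547-46100606) lie on the same chromosome, where the genes are neighbours, and that of Tlr2 on another (chr2:175608160-175608217). Capitals mark the run of 8 bases that the 3 receptor probes have in common, which 32 of the 41012 probes on the array hold.
Ticam1: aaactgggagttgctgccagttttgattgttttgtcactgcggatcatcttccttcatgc
Tlr1: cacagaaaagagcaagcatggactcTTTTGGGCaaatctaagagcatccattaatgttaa
Tlr6: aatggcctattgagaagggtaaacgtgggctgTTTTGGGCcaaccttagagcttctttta
Tlr2: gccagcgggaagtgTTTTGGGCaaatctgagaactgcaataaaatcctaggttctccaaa
The Tlr1 and Tlr2 probes shared a longer run of 14 bases, found on no other probe. In their best ungapped overlap, the probes of Tlr1 and Tlr6 matched at 37 of 53 bases, those of Tlr1 and Tlr2 at 32 of 49, and those of Tlr2 and Tlr6 at 27 of 42. Within these overlaps the probes differed from each other at many positions. They were not compared with the transcripts of the related genes, and cross-hybridisation was not tested.

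Ticam1 was the 1 gene of the 10 that differed between groups past the threshold. It was higher in the CR-L offspring than in WT (0.44 ± 0.10, 1.35-fold, limma adjusted p = 0.0109). Over all features, 3.54% passed in this comparison (787 of 22258), 2.14% higher and 1.39% lower. Ticam1 ranged in WT from -0.52 (replicate 5) over a median of -0.34 to 0.11 (replicate 7), with a mean of -0.27 ± 0.23 (SD, n = 7). In CR-L it ranged from -0.34 (replicate 10) over a median of 0.18 to 0.50 (replicate 7), with a mean of 0.17 ± 0.23 (SD, n = 13). The groups overlapped at their edges, with 8 of 13 CR-L arrays above the highest WT array and 12 of 13 above the WT median. CR lay between them, from -0.36 (replicate 9) over a median of -0.024 to 0.41 (replicate 6), with a mean of 0.018 ± 0.22 (SD, n = 11). Neither CR against WT (0.29 ± 0.10, adjusted p = 0.211) nor CR-L against CR (0.15 ± 0.088, adjusted p = 0.9997) passed the threshold, so the place of CR between the other groups is not settled beyond the spread.

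**Figure D1:**
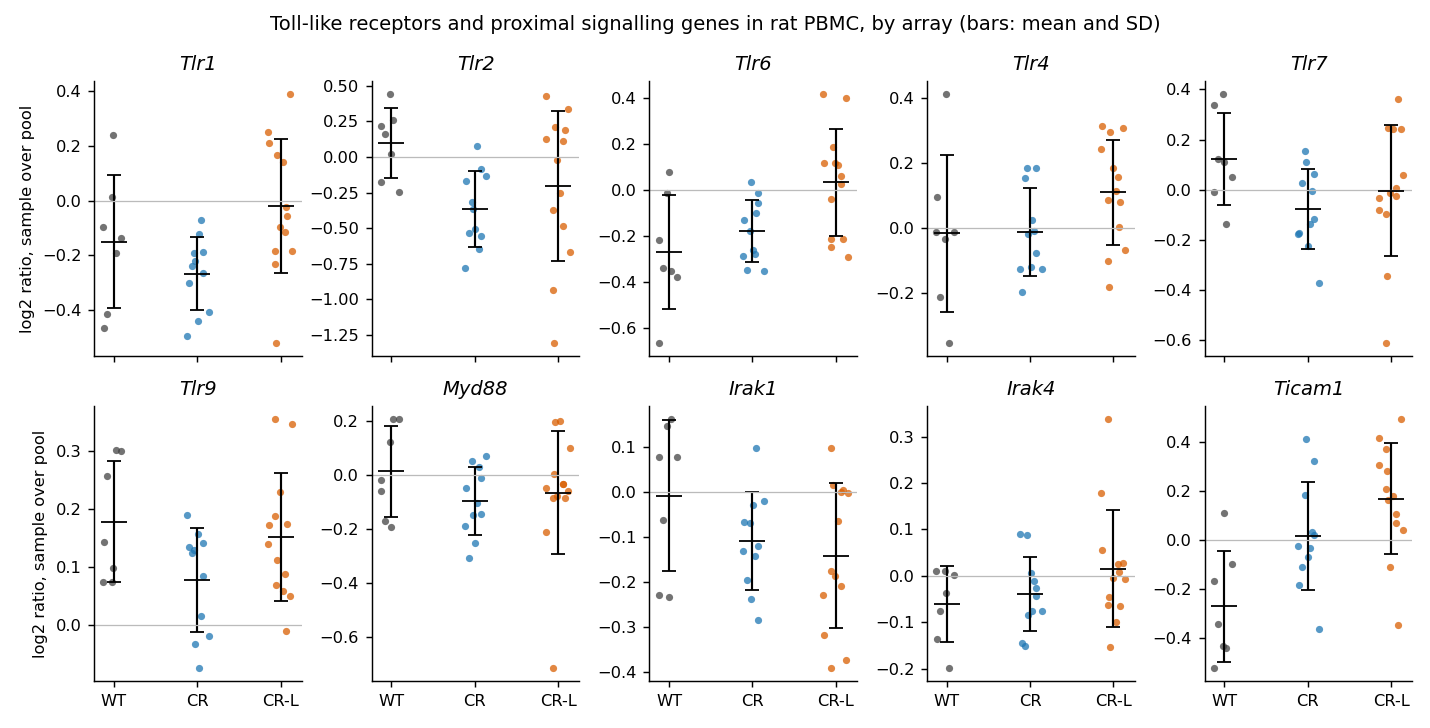
Log2 ratio of each array over the reference pool (vertical axis, a separate scale for each gene) for the 10 genes in WT (7 arrays), CR (11) and CR-L (13). Points are arrays, and the bars give the group mean and SD. For Ticam1, 8 of 13 CR-L points lie above the highest WT point.

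The Ticam1 difference was present on every slide that held both groups. Arrays were spread over 8 slides, 7 of which held 1 WT array, and on those 7 the CR-L arrays stood above the WT array by 0.20 to 0.83, with a median of 0.39. The smallest difference was on slide 6, where CR-L replicates 9 (-0.11) and 10 (-0.34) were the lowest of their group. With slide as a block the difference was 0.45 (adjusted p = 0.0213). Leaving out any single array kept it between 0.40 and 0.50, with adjusted p from 0.00208 to 0.0392, the highest without WT replicate 4.

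**Figure D2:**
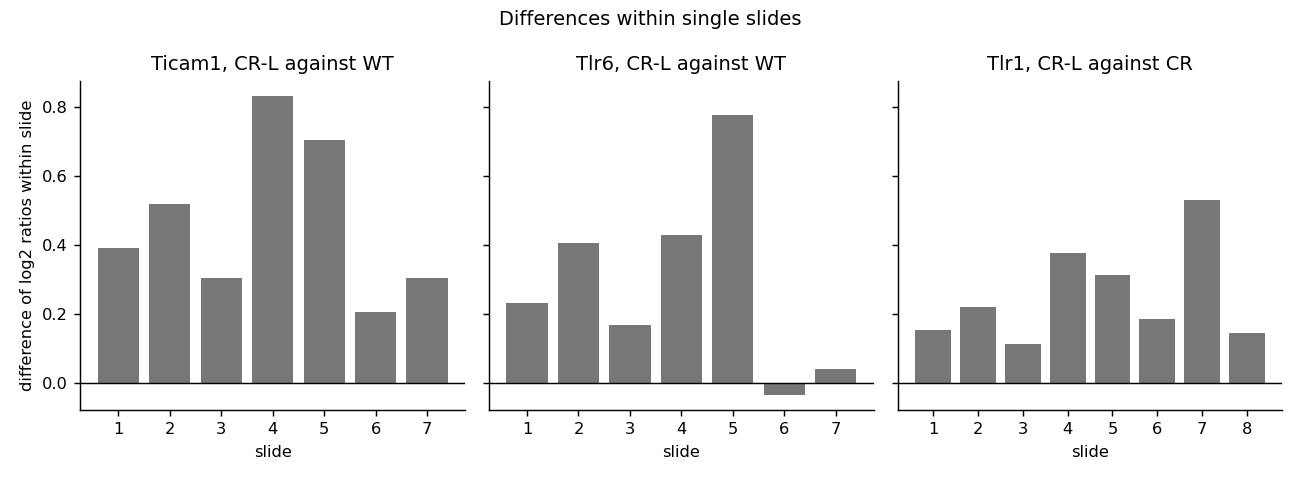
Differences of log2 ratios within single slides (bars, vertical axis; slide number on the horizontal axis), each the mean of the first group's arrays on that slide minus the mean of the second's. Ticam1 in CR-L against WT is above 0 on 7 of 7 slides, Tlr6 in the same comparison on 6 of 7, and Tlr1 in CR-L against CR on 8 of 8.

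Ticam1 correlated with markers of NK and cytotoxic cells and, inversely, with those of B cells. Over 31 arrays its log2 ratio correlated with the mean of 9 such markers at r = 0.57 (permutation p = 0.00084, adjusted p = 0.0106 over 80 pairs of genes and marker lists; Spearman's rho = 0.56, p = 0.0015, adjusted p = 0.0240). The r was 0.51 without the 2 arrays farthest from the median, 0.58 with group means removed and 0.61 with slide means removed as well, 0.81 within CR-L and 0.53 within CR, yet -0.062 within the 7 WT arrays. The marker mean ranged from -0.34 to 0.23 in WT, from -0.45 to 0.51 in CR and from -0.82 to 0.55 in CR-L. CR-L replicate 10 had the lowest marker mean and the lowest Ticam1 value of its group. All 9 markers lay above 0 in CR-L against WT, with a median of 0.13, and none passed the threshold. With the mean of 13 B cell markers, r was -0.46 (permutation p = 0.00955, adjusted p = 0.0477; rho = -0.43, p = 0.0181, adjusted p = 0.109), -0.37 without the 2 farthest arrays and -0.49 with group and slide means removed; it was 0.012 within WT, -0.72 within CR and -0.26 within CR-L. That mean ranged from -0.54 to 0.29 in WT, from -0.95 to 0.39 in CR and from -0.81 to 0.32 in CR-L. All 13 B cell markers lay below 0 in CR-L against WT, with a median of -0.26, and none passed the threshold. With the 4 marker lists as covariates, B cells among them (the others are monocytes, T cells and granulocytes), the Ticam1 difference was 0.40 (adjusted p = 0.0203). With the NK and cytotoxic marker mean as a covariate, an alternative chosen after seeing the data, the Ticam1 difference was 0.37 (adjusted p = 0.0160). With the means of all 8 marker lists as covariates, also chosen after seeing the data, it was 0.36 and no longer passed (adjusted p = 0.110). In bulk RNA, more cells of a type and more RNA per cell cannot be told apart, here and in each result below.

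**Figure D3:**
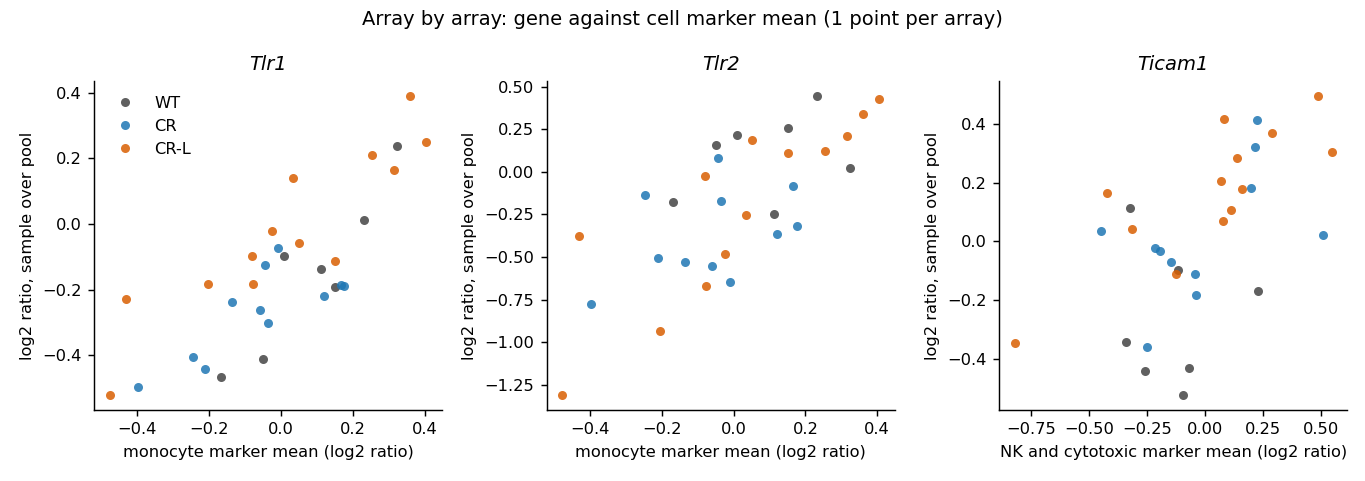
Log2 ratio of Tlr1, Tlr2 and Ticam1 (vertical axes) against the mean log2 ratio of monocyte markers or of NK and cytotoxic cell markers (horizontal axes), with 1 point per array coloured by group. Pearson's r over the 31 arrays is 0.80 for Tlr1, 0.73 for Tlr2 and 0.57 for Ticam1.

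Tlr6, one of the partners of Tlr2, came next in CR-L against WT and missed the threshold. WT ranged from -0.67 (replicate 5) over a median of -0.34 to 0.078 (replicate 7), with a mean of -0.27 ± 0.25 (SD, n = 7). CR-L ranged from -0.29 (replicate 4) over 0.063 to 0.42 (replicate 3), with a mean of 0.034 ± 0.23 (SD, n = 13). All 13 CR-L arrays stood above the WT median and 6 above the highest WT array. The difference was 0.30 ± 0.093 (1.23-fold, adjusted p = 0.0639), and it lay above 0 on 6 of 7 slides, from -0.035 to 0.78. It passed without any 1 of 6 arrays (WT replicates 6 and 7 and CR-L replicates 4, 5, 6 and 10; adjusted p from 0.0260 to 0.0492), with array weights (0.0129) and with the same 4 marker lists as covariates (0.00859), and its adjusted p was 0.191 without WT replicate 5.
CR arrays, from -0.35 (replicate 9) over -0.18 to 0.034 (replicate 6), had a mean of -0.18 ± 0.14 (SD, n = 11). Against WT the CR difference was 0.092 ± 0.096, well within the spread. Against CR, CR-L was higher by 0.21 ± 0.082 (unadjusted p = 0.0139, adjusted p = 0.9997) and above 0 on 8 of 8 slides.

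Tlr1, the other partner of Tlr2, had its lowest mean in CR and its highest in CR-L. WT ranged from -0.47 (replicate 5) over -0.14 to 0.24 (replicate 7), and CR from -0.49 (replicate 3) over -0.24 to -0.072 (replicate 11). CR-L ranged from -0.52 (replicate 6) over -0.057 to 0.39 (replicate 7). CR arrays were the least spread, with an SD of 0.13 against 0.24 in each of the other groups, and all 11 lay below 0. The mean of CR-L (-0.019) exceeded that of CR (-0.27) by 0.25 ± 0.083, with 12 of 13 CR-L arrays above the CR median and 7 above the highest CR array. The difference was 0.11 to 0.53 within each of the 8 slides. Its unadjusted p was 0.00553 and its adjusted p 0.9997; in this comparison 0% of features were called (0 of 22258), and 518 features, or 2.33%, had an unadjusted p under 0.05. In the same comparison 14 of 17 monocyte markers lay above 0 (median 0.11), 0 of 10 platelet markers (median -0.40) and 8 of 11 erythroid markers (median 0.62), none past the threshold. With the 4 marker lists as covariates the Tlr1 difference was 0.18, and without the 3 platelet-poor arrays (WT replicate 7 and CR-L replicates 3 and 7; chosen after seeing the data) 0.19. Against WT, Tlr1 differed by -0.12 ± 0.098 in CR (adjusted p = 0.685) and 0.13 ± 0.095 in CR-L (adjusted p = 0.544).

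Tlr2, the shared partner, had its lowest mean in CR and did not pass the threshold there. The ratio of WT over CR was 1.38-fold (-0.46 ± 0.18 for CR against WT, unadjusted p = 0.0157, adjusted p = 0.264). In this comparison 0.458% of all features passed (102 of 22258), 0.35% higher and 0.108% lower, and none of the 10 genes did. WT ranged from -0.25 (replicate 3) over 0.16 to 0.45 (replicate 6), with a mean of 0.097 ± 0.25 (SD, n = 7). CR ranged from -0.78 (replicate 3) over -0.37 to 0.079 (replicate 7), with a mean of -0.37 ± 0.27 (SD, n = 11). In CR, 7 of 11 arrays lay below the lowest WT array and none above the WT median, and CR was the lower group on 6 of 7 slides. CR-L was the most variable group, from -1.31 (replicate 6) over -0.022 to 0.43 (replicate 3), with an SD of 0.53 around a mean of -0.20. Its arrays spread widely, 6 of 13 below the lowest WT array and 4 above the WT median, with none above the highest WT array, and CR-L differed neither from WT (-0.30 ± 0.18, adjusted p = 0.413) nor from CR (0.16 ± 0.15, adjusted p = 0.9997) beyond that spread. Of 17 monocyte markers, 15 lay below 0 in CR against WT, with a median of -0.16. With the 4 marker lists as covariates the Tlr2 difference was -0.22 (unadjusted p = 0.126).

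Tlr4, the lipopolysaccharide receptor, did not separate the groups. Its medians were -0.013 in WT, -0.020 in CR and 0.11 in CR-L, and the WT arrays alone ran from -0.36 (replicate 4) to 0.41 (replicate 7), wider than either CR (-0.20 to 0.18) or CR-L (-0.18 to 0.31). CR-L differed from WT by 0.13 ± 0.080 (adjusted p = 0.459) and from CR by 0.12 ± 0.069 (adjusted p = 0.9997). The difference of CR from WT was 0.0046 ± 0.082, and its sign turned in 3 alternatives (slide block, replicate block and NK marker covariate) and without any 1 of 5 arrays.

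Among the endosomal receptors, Tlr7 stood below WT in CR on each of the 7 slides, with differences from -0.50 to -0.061. WT ranged from -0.14 (replicate 4) over 0.11 to 0.38 (replicate 6), CR from -0.37 (replicate 9) over -0.12 to 0.15 (replicate 4), and CR-L from -0.61 (replicate 5) over -0.014 to 0.36 (replicate 10). In CR, 5 of 11 arrays were below the lowest WT array, yet the difference of -0.20 ± 0.10 did not pass (unadjusted p = 0.0532, adjusted p = 0.416). Tlr9, whose probe was the dimmest, spanned from -0.075 (CR replicate 7) to 0.36 (CR-L replicate 2) over all arrays. Its means were 0.18 ± 0.10 (SD, n = 7) in WT, 0.077 ± 0.089 (SD, n = 11) in CR and 0.15 ± 0.11 (SD, n = 13) in CR-L, and no difference passed (CR against WT -0.10 ± 0.051, adjusted p = 0.429).

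Myd88, the adaptor that all these receptors use, did not differ between groups past the threshold. WT ranged from -0.19 (replicate 7) over -0.021 to 0.21 (replicate 3), CR from -0.31 (replicate 10) over -0.10 to 0.070 (replicate 9), and CR-L from -0.72 (replicate 5) over -0.050 to 0.20 (replicate 8). The groups overlapped, with 2 of 11 CR arrays and 2 of 13 CR-L arrays below the lowest WT array and none above the highest. CR-L replicate 5 stood apart, as the next lowest CR-L array stood at -0.21. The differences from WT were -0.11 ± 0.086 in CR and -0.079 ± 0.084 in CR-L.

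Of the kinases, Irak1, which Irak4 phosphorylates, had its lowest mean in CR-L. Its medians were 0.078 in WT (-0.23 to 0.16), -0.12 in CR (-0.28 to 0.099) and -0.18 in CR-L (-0.39 to 0.098). Only 1 of 11 CR arrays and 1 of 13 CR-L arrays stood above the WT median, while the 2 lowest WT arrays reached -0.23 and kept the groups overlapping. The differences were -0.10 ± 0.070 (adjusted p = 0.608) and -0.13 ± 0.068 (adjusted p = 0.328). They turned to 0.11 and 0.019 when arrays were scaled to a common spread. Irak4 varied little between arrays, with SDs of 0.081, 0.080 and 0.13 in WT, CR and CR-L. Its highest value, 0.34, was again in CR-L replicate 5, and its differences from WT were 0.022 ± 0.052 in CR and 0.076 ± 0.050 in CR-L (adjusted p = 0.908 and 0.486). CR-L replicate 5 thus held the lowest value of its group for Myd88, Tlr7 and Irak1 and the highest for Irak4, and it had the lowest of all array weights (0.27).

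**Figure D4:**
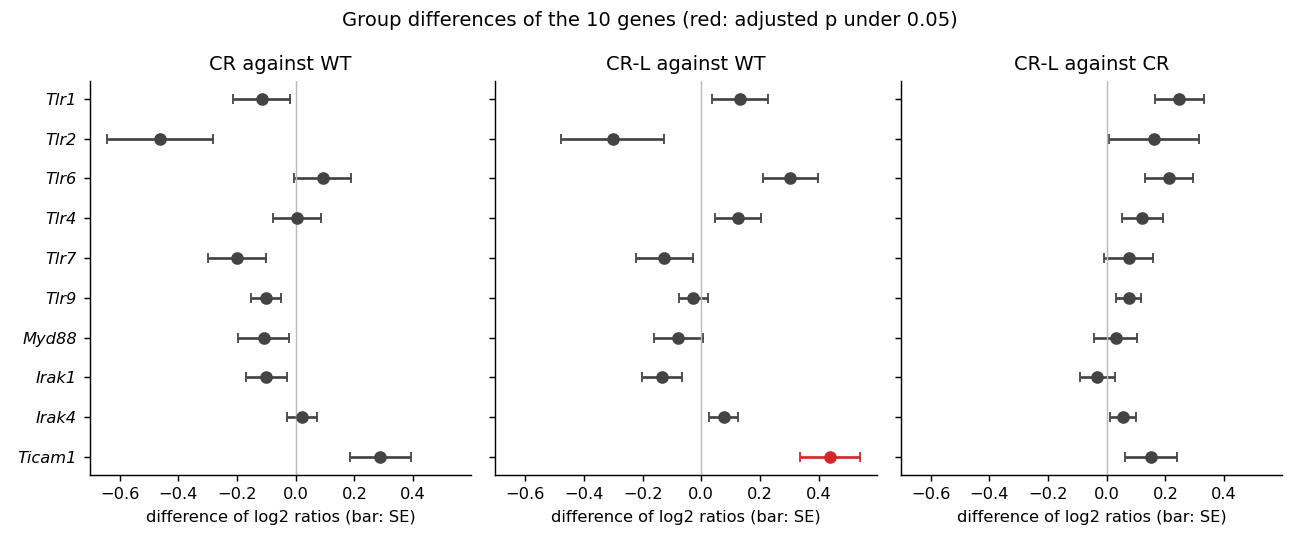
Differences of mean log2 ratio (horizontal axis) for the 10 genes in the 3 comparisons, with bars of 1 SE. The 1 red point, Ticam1 in CR-L against WT (0.44 ± 0.10), is the 1 difference with an adjusted p under 0.05, and in CR-L against CR 9 of 10 points lie above 0.

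Counted over the 10 genes, 5 lay above 0 and 5 below in CR-L against WT, with a median of 0.025 against 0.012 over all features. In CR against WT, 4 lay above and 6 below (median -0.10 against 0.012). In CR-L against CR, 9 lay above 0 and 1 below (median 0.098 against -0.0028 over all features, 47.9% of which lay above 0). The comparisons are not independent of each other. Those with WT share its 7 arrays, those with CR its 11 and those with CR-L its 13. A low CR mean by itself lowers the difference of CR against WT and raises that of CR-L against CR. The genes also varied together, with 14 of 45 pairs passing by Pearson's r, so these counts are not of separate observations.

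The wider pathway was described through 79 further genes of Toll-like receptor signalling, of which 65 were tested. Of these, 1 was higher and 4 were lower in CR-L than in WT, 1 was lower in CR than in WT, and none differed between CR-L and CR. As shares of the 65 genes these are 7.69%, 1.54% and 0%, beside 3.54%, 0.458% and 0% of all features, and whether the shares differ was not tested. The median differences of the 65 genes were -0.021, -0.0053 and -0.0012.

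Traf6, the ubiquitin ligase that takes over the signal from Irak1, was lower in both groups of offspring from restricted dams. WT arrays ranged from 0.043 (replicate 3) over 0.32 to 0.83 (replicate 4), all with positive values. CR ranged from -0.66 (replicate 6) over -0.24 to 0.45 (replicate 1) and CR-L from -0.87 (replicate 2) over -0.20 to 0.33 (replicate 9). Traf6 fell by 0.68 ± 0.14 in CR-L (limma adjusted p = 0.00478, 1.60-fold lower). In CR it fell by 0.60 ± 0.14 (adjusted p = 0.0493), a call that ended when any 1 of 22 arrays was left out, with adjusted p up to 0.143 without WT replicate 4, and in 11 of 15 alternatives. In CR-L the call ended in 1 of 15, with arrays scaled to a common spread (adjusted p = 0.0972).

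The inhibitors Tnfaip3, which removes ubiquitin chains from Traf6 and Ripk proteins, and Nfkbia, which holds NF-kB in the cytosol, are themselves induced by NF-kB. Tnfaip3 had a mean of 0.21 ± 0.30 (SD, n = 7) in WT and -0.50 ± 0.40 (SD, n = 13) in CR-L and fell by 0.71 ± 0.18 (adjusted p = 0.0229). Nfkbia had means of 0.42 ± 0.22 (SD, n = 7) and -0.22 ± 0.40 (SD, n = 13) and fell by 0.64 ± 0.17 (adjusted p = 0.0264). The calls ended without WT replicates 4 (adjusted p = 0.0731) or 6 (0.0541) for Tnfaip3, and without WT replicates 2, 4 or 6 (0.0662 to 0.0689) for Nfkbia. With arrays scaled to a common spread neither passed (adjusted p = 0.169 and 0.153), nor with the 8 marker lists as covariates (0.0809 and 0.216), and Nfkbia did not with the 4 lists (0.0910). CR lay between for both genes and did not differ from WT past the threshold. Of the 12 inhibitors tested, these 2 were lower, none was higher, and 9 lay below 0 in CR-L against WT, beside 1.39% of all features called lower and 55.1% above 0.

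In the branch behind Ticam1, 1 gene rose and 1 fell among the 12 tested, and 9 lay above 0 in CR-L against WT (median 0.055), beside 3.54% of all features called and 55.1% above 0. Ripk3, a kinase of necroptosis, had a mean of -0.14 ± 0.21 in WT (SD, n = 7) and of 0.18 ± 0.14 in CR-L (SD, n = 13) and rose by 0.32 ± 0.073 (adjusted p = 0.0110). This call ended in 3 of 15 alternatives: arrays scaled to a common spread, the red channel alone and the 8 marker lists as covariates. Tbk1, the kinase that activates interferon regulatory factors, fell from a WT mean of 0.28 ± 0.11 (SD, n = 7) to a CR-L mean of 0.046 ± 0.16 (SD, n = 13), a difference of -0.24 ± 0.064 (adjusted p = 0.0329). The Tbk1 call rested on the brighter of its probes. The other gave -0.061 ± 0.069, and the call ended in 6 of 15 alternatives and without any 1 of 6 arrays, with adjusted p up to 0.0985 without WT replicate 4.

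The other genes of the fixed set did not pass in CR-L against WT. Tlr3, the RNA sensor that signals through Ticam1 alone, stood at 0.14 ± 0.088, and Tlr13 at -0.028 ± 0.12. The lipopolysaccharide co-receptors stood at -0.24 ± 0.20 for Cd14 and 0.014 ± 0.090 for Ly96, and Unc93b1, which brings Tlr7 and Tlr9 to endosomes, at -0.098 ± 0.085. The adaptor Ticam2 stood at 0.074 ± 0.060, and the Irak1 relatives Irak2 and Irak3 at -0.012 ± 0.050 and 0.0096 ± 0.056. The single probes of Tlr5 and Tlr10 were well above background on 1 array each and were not tested, and no probe was named for Tlr8, Tlr11, Tlr12 or Tirap.

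Across arrays, 5 of the 6 receptors rose and fell together with monocyte markers. For Tlr1 the correlation with the mean of 17 monocyte markers was r = 0.80 (permutation p = 1e-05, the smallest that 100000 permutations can give; adjusted p = 0.0004; rho = 0.77, p = 2e-05) and 0.82 without the 2 farthest arrays. It was 0.92 within WT, 0.77 within CR and 0.90 within CR-L, and 0.88 with group and slide means removed. For Tlr2, r was 0.73 (p = 1e-05, adjusted p = 0.0004; rho = 0.69, p = 2e-05), 0.69 without the 2 farthest arrays and 0.71 with group and slide means removed. In the plot of Tlr1 and Tlr2 against monocyte markers, CR-L arrays occupy both ends of the line.
Tlr6 (r = 0.62, p = 0.00029, adjusted p = 0.00464; rho = 0.59, p = 0.00065), Tlr7 (r = 0.62, p = 0.00026, adjusted p = 0.00464; rho = 0.57, p = 0.00126) and Tlr4 (r = 0.55, p = 0.00149, adjusted p = 0.0132; rho = 0.52, p = 0.00324) followed. Without the 2 farthest arrays these were 0.66, 0.46 and 0.50, and with group and slide means removed 0.77, 0.61 and 0.67. Within WT, CR and CR-L the r with monocyte markers was 0.34, 0.43 and 0.85 for Tlr2, 0.86, 0.71 and 0.80 for Tlr6, and 0.31, 0.38 and 0.89 for Tlr4. For Tlr7 it was -0.15, 0.78 and 0.68, so that its relation was not seen within the 7 WT arrays. Tlr9, a DNA sensor prominent in B cells and plasmacytoid dendritic cells, showed no such relation with monocyte markers (r = -0.12, p = 0.524, adjusted p = 0.747). Its rho was -0.21 (p = 0.251), and r was -0.15 without the 2 farthest arrays and -0.23 with group and slide means removed. Nor did Tlr9 follow the markers of B cells (r = -0.025, permutation p = 0.894, adjusted p = 0.968). With those of plasmacytoid dendritic cells r was 0.11 (permutation p = 0.541, adjusted p = 0.747), and 0.77 within WT, 0.022 within CR and 0.096 within CR-L.

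**Figure D5:**
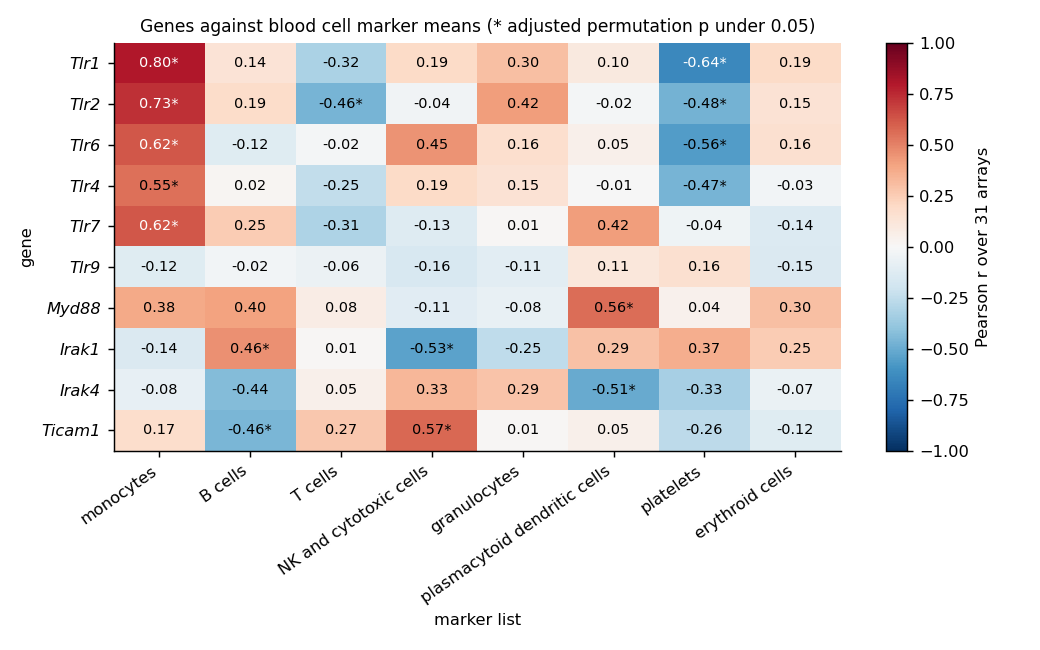
Pearson's r over the 31 arrays (colour and printed value) between each of the 10 genes (vertical axis) and the mean of each of 8 blood cell marker lists (horizontal axis). Stars mark the 16 of 80 pairs with an adjusted permutation p under 0.05, among them the 5 receptors Tlr1, Tlr2, Tlr6, Tlr4 and Tlr7 with monocytes.

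Of the 80 pairs of a gene and a marker list, 16 passed by Pearson's r, 8 positive and 8 negative, and 7 by Spearman's rho. The signalling genes had other partners than the receptors. Myd88 rose with markers of plasmacytoid dendritic cells (r = 0.56, p = 0.00106, adjusted p = 0.0106), with rho = 0.45 (p = 0.0127, adjusted p = 0.109). Within WT and CR-L r was 0.71 and 0.73, but within CR it was 0.15. It was 0.51 over all arrays without the 2 farthest and 0.56 with group and slide means removed. Irak4 ran the other way with the same markers (r = -0.51, p = 0.00365, adjusted p = 0.0265; rho = -0.32, p = 0.0768, adjusted p = 0.293). Its r was -0.38 and -0.59 in the same checks, and -0.16 within WT, -0.13 within CR and -0.73 within CR-L. Irak1 was lower where markers of NK and cytotoxic cells were higher (r = -0.53, p = 0.00212, adjusted p = 0.0170; rho = -0.54, p = 0.00201, adjusted p = 0.0268), with r = -0.53 and -0.48 in the same checks. It rose with B cell markers (r = 0.46, p = 0.00915, adjusted p = 0.0477; rho = 0.42, p = 0.0191, adjusted p = 0.109; 0.33 and 0.49 in the same checks). Tlr2 was lower where T cell markers were higher (r = -0.46, p = 0.00844, adjusted p = 0.0477; rho = -0.39, p = 0.0317, adjusted p = 0.158; -0.36 and -0.50). With platelet markers 4 receptors had negative relations that passed by r, none of them by rho. For Tlr1, r was -0.64 (p = 0.00011, adjusted p = 0.00293; rho = -0.46, p = 0.0107, adjusted p = 0.107), and -0.45 without the 2 farthest arrays and -0.68 with group and slide means removed. For Tlr2 it was -0.48 (p = 0.00677, adjusted p = 0.0451; rho = -0.42, p = 0.0190; -0.33 and -0.50 in the same checks) and for Tlr4 -0.47 (p = 0.00734, adjusted p = 0.0452; rho = -0.33, p = 0.0678; -0.33 and -0.51). The relation of Tlr6 (r = -0.56, p = 0.00104, adjusted p = 0.0106; rho = -0.27, p = 0.145) was -0.21 without the 2 farthest arrays, CR-L replicates 3 and 7. It was -0.69 with group and slide means removed. Its size over the 31 arrays thus depended on those 2 samples, yet within WT, which holds neither, r was -0.82. Within CR r was 0.18, and within CR-L -0.77.

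Among the genes themselves, 14 of 45 pairs passed, 9 positive and 5 negative. Tlr1 and Tlr6, neighbours in the genome, were the closest pair (r = 0.79, p = 1e-05, adjusted p = 0.000225; rho = 0.72, p = 1e-05; 0.76 without the 2 farthest arrays and 0.84 with group and slide means removed). Both also rose with monocyte markers (r = 0.80 and 0.62), and cross-hybridisation between their probes was not tested. Ticam1 rose with Tlr6 (r = 0.66, p = 4e-05, adjusted p = 0.00045; rho = 0.63, p = 0.00017; 0.57 and 0.67 in the same checks) and ran opposite to Irak1 (r = -0.57, p = 0.00092, adjusted p = 0.00591; rho = -0.53, p = 0.00276; -0.48 and -0.54). Myd88 and Irak1, successive in the pathway, rose together (r = 0.65, p = 3e-05, adjusted p = 0.00045; rho = 0.64, p = 0.00011; 0.62 and 0.59). Myd88 and Irak4 ran in opposite directions (r = -0.52, p = 0.00735, adjusted p = 0.0301; rho = -0.17, p = 0.352), and r went to -0.18 without the 2 farthest arrays, so that relation rested on those samples.

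The features most like each gene, by Pearson's r of the deviations from group means over 31 arrays among 11561 features with an established symbol, were as follows. For Tlr1 they were Cd68 (0.90) and Clec4a1 (0.89), both of them among the monocyte markers used above, and for Tlr2 Slc16a3 (0.93) and Il1b (0.88). For Tlr6 they were Esrra (0.88) and Rhov (0.86), for Tlr4 Oma1 (0.77) and Lactb (0.77), and for Tlr7 Mpeg1 (0.77) and Blvra (0.75). Tlr9 had the weakest likeness, to Pcgf6 (0.67) and Ociad2 (0.66). Among the signalling genes, Myd88 was most like Arf1 (0.89) and Akr1b1 (0.88), Irak1 like Il21r (0.87) and Otulin (0.83), Irak4 like Dnai7 (0.80) and Arv1 (0.70), and Ticam1 like Zscan12 (0.81) and Eci3 (0.80).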

How the data were processed

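Each array held 1 individual PBMC sample in red (Cy5) and, in green (Cy3), a pool of equal parts of RNA from 5 random samples per group, with no dye swap, per the labels. The authors deposited spot intensity and local background intensity, extracted with Agilent Feature Extraction 10.7.3.1 (submitters' processing notes), with its log10 ratio per the file headers. They also deposited a series table of log2 values, set to a common median per array; its other steps are not given in the sources used here.

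Intensities were corrected by normexp (offset 50), normalised by loess within arrays and tested with limma 3.58.1 in R 4.3.3 (lmFit, eBayes, two-sided) over all 31 arrays together. Of 45018 spots per array, 1639 control spots and outlier spots (0.408% of values) were left out. A probe was kept if its red signal was well above background on 7 or more arrays (26716 of 41012), and the brightest represented each gene, leaving 22258 features. Symbols were updated through RefSeq (GRCr8), used for names and neighbours, and probe positions are those of the files (rn4). Correlations used 100000 permutations (numpy, two-sided, with ranks from scipy). The tests were run on simulated data in which the arrays, and for limma also the genes, were independent. Such data hold no shared litters, so the check does not cover them. The number of arrays limits the precision.

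All 10 genes are reported, with pathway genes that passed and a fixed set of others, and the 2 features most like each gene. The genes, the lists and the set were chosen with earlier results of these data known. Replicate numbers in the titles are not said to pair the arrays, so the main fit held no block for them. Alternatives covered background correction, scaling, channel, the series table, the filter, the choice of probe, blocks, weights, marker covariates and single arrays left out.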

Additional observations from a re-analysis of the deposited data

Results flagged for a closer look

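Among the 7 WT arrays, a single array stood apart from the others in 2 of 31 sets of values examined by Dixon's test, where chance gives about 1 in 20. Cd14, the lipopolysaccharide co-receptor of Tlr4, was -0.601 in WT replicate 3 and between 0.167 and 0.730 in the other 6 WT arrays, a gap of 0.577 of the whole range. The mean of the B cell markers was -0.536 in WT replicate 1 and between 0.0363 and 0.291 in the others, a gap of 0.692 of the range. None of the 10 genes had such an array in WT.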

How the results depend on the processing

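Over 15 alternatives, the differences of the 10 genes kept their sign and their side of the threshold in 435 values. A further 12 changed sign, 2 newly passed and 1 no longer did. Ticam1 in CR-L against WT passed in all alternatives but the 8 marker lists as covariates, from 0.36 there to 0.60 with the Feature Extraction log ratio. The number of the 10 genes past the threshold in that comparison was 1, became 2 with array weights and with 4 marker lists as covariates (Tlr6 added) and 0 with 8, and ranged from 1 to 2 with single arrays left out. The 3 alternatives chosen after seeing the data are the NK marker covariate, the 8-list covariates and the set without platelet-poor arrays. Of 25 same-number pairs of arrays, 7 correlated above 0.1, with a median of 0.045 against -0.0077 for pairs of other numbers. These values cannot show whether same-number arrays share a litter or a day. With the replicate block Ticam1 stood at 0.50 (adjusted p = 0.00603), and the block changed no other call among the 10 genes.

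Sign changes were all among differences that did not pass. In CR against WT they were Irak1 with scaling (0.11), Tlr1 with 4 and 8 covariates (0.014 and 0.027), and Tlr4 with the slide block (-0.016), the replicate block (-0.033) and the NK covariate (-0.0057). In CR-L against WT they were Irak1 with scaling (0.019), Tlr9 with the Feature Extraction ratio (0.0012), Irak2 with red alone (0.060), the NK covariate (0.0065) and 8 covariates (0.034), Ly96 with the slide block (-0.0059) and replicate block (-0.014), and Tlr13 with array weights (0.030) and 4 and 8 covariates (0.0016 and 0.041). In CR-L against CR they were Irak1 with 4 covariates (0.0064), Myd88 with scaling (-0.00059) and the slide block (-0.0033), and Tlr2 with 8 covariates (-0.061). With single arrays left out the sign turned for Tlr4 (-0.052 to 0.076) and Irak4 (-0.0012 to 0.034) in CR against WT, and for Irak2 (-0.030 to 0.0082), Irak3 (-0.014 to 0.027), Ly96 (-0.027 to 0.066) and Tlr13 (-0.076 to 0.033) in CR-L against WT. The causes were not tested.

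Over all features, the 102 calls of CR against WT became 65 with the Feature Extraction ratio, 2 with scaling, 34 with red alone, 0 with the authors' series table, 229 with the replicate block, 388 with array weights, 22 and 18 with 4 and 8 covariates and 60 with the NK covariate, and 17 to 207 with single arrays left out (lowest without WT replicate 4, highest without CR replicate 9). The 787 of CR-L against WT became 119 with scaling, 495 with the series table, 487 with the NK covariate, 90 with 8 covariates, and 423 to 1099 with single arrays left out (without WT replicate 4 and CR-L replicate 10). CR-L against CR gave 0 throughout. The dim Tlr9 and Tlr4 probes limit what their ratios can show.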
